A study of Zea mays with 12 samples.

Results

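A group of 134 maize seed genes was defined by transcripts that were at most 0.5 times as abundant in the *zmmsh7-2* mutant as in wild type at 14 days after pollination (DAP), while the ratio at 7 DAP lay between 0.8 and its inverse. They were taken from 46430 identifiers, of which 44146 are nuclear gene models. Values are given as CPM, the count of a gene scaled to a library total of 1000000. The rule also asked for a wild-type mean of at least 5 CPM at 14 DAP and at least 2 CPM at 7 DAP. Because group means of all 12 libraries chose the members, the difference between genotypes at either stage is a description of the choice. Calls by a test on those contrasts are given only beside the share of all genes called. The name "lower at 14 DAP only" rests on the window at 7 DAP, and members inside that window could still differ between genotypes there. At 7 DAP 45.5% of members were called lower and 3.73% higher in the mutant. Of all genes at the same levels and in the window, 32.7% were called lower and 22.1% higher.

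The groups were seeds of the mutant at 14 DAP, wild type at 14 DAP, the mutant at 7 DAP and wild type at 7 DAP, with 3 libraries each. The labels mark the mutant as a CRISPR knockout of MSH7 with the code aa, and wild type with the code AA. The sources used here give neither the number of independent mutant lines nor the inbred background, and they do not say whether seeds of several ears were pooled. Separate plants or ears are not named for the replicates either, so a p-value reflects variation among these libraries that may be technical. Library totals lay between 16854595 and 21932590 counts. The stages come from separate tables, and any batch that differs between those cannot be told apart from age of the seed.

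MSH7 is a plant MutS homolog, a family of proteins that recognise mismatched bases in DNA. In a maize seed early after pollination the endosperm is dividing and newly differentiating, while later endosperm cells endoreduplicate and fill with starch and zein storage proteins. The embryo grows and maternal tissue, including the pericarp, surrounds both, so a whole-seed library mixes RNA of all these tissues. In such bulk samples, fewer cells of a type and less RNA per cell cannot be told apart. The reference table of gene names matched 0 of the 134 members and 0 of the 44146 nuclear models. The members are therefore described by identifier, no product or pathway is assigned to them, and neither MSH7 nor markers of seed tissues were analysed here.

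Among nuclear models, 16060 met both limits on wild-type abundance. Of these, 880 were at or below 0.5 times wild type in the mutant at 14 DAP. They split by their ratio at 7 DAP into 383 that were at or below 0.5 there too, 311 between 0.5 and 0.8, the 134 members, and 52 above the inverse of 0.8. The members were thus 15.2% of the genes that low at 14 DAP, and 1.68% of the 7965 genes whose ratio at 7 DAP lay in the window. No member was next to another in the order of the deposited genes, with 0 adjacent pairs, and 2 pairs lay within 10 identifier numbers. The number of pairs expected was not computed, so nothing is read about clustering. Of the identifiers that are not nuclear models, 11 met the limits on abundance and 0 met the whole rule.

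**Figure D1:**
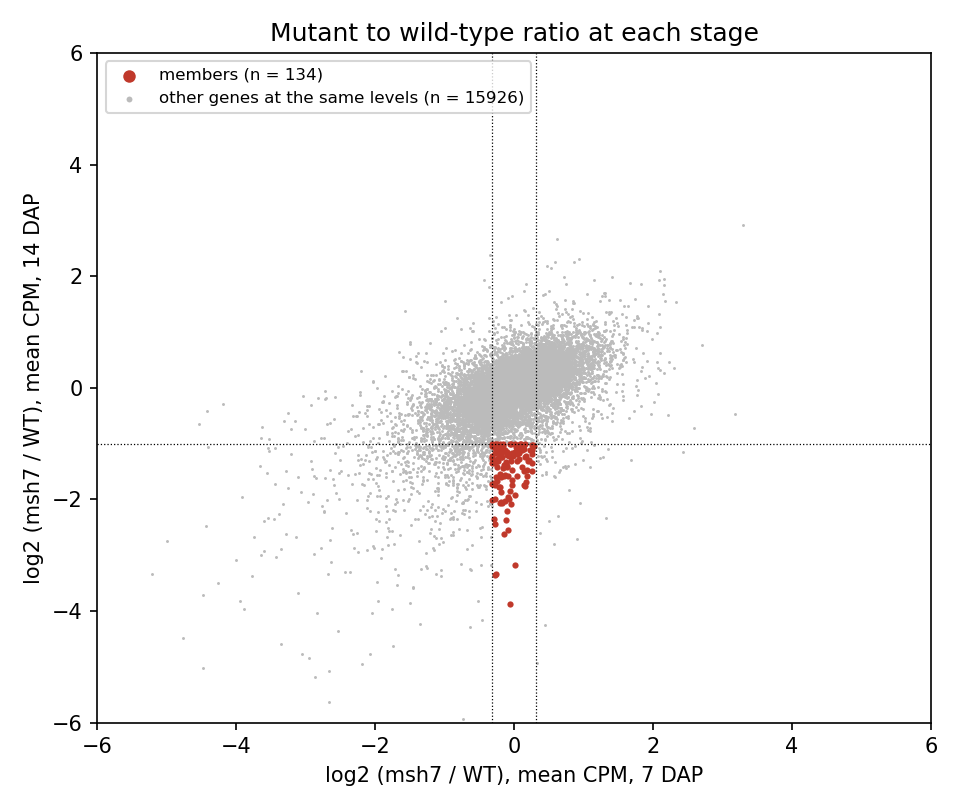
Ratio of the mutant to wild type at 7 DAP (horizontal axis) and at 14 DAP (vertical axis), both as log2 of the ratio of mean CPM, for the 134 members (red) and the other genes at the same wild-type levels (grey). Dotted lines mark the limits of the rule, so the red points fill the block that the rule set. The cloud of 311 and 383 genes left of that block was low at 14 DAP with a lower ratio at 7 DAP as well, and 1 gene lies outside the axes.

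Members ranged from 6.84% to 49.97% of the wild-type mean at 14 DAP, with a median of 41.7% and quartiles of 33.1% and 46.5%. Only 3 members were at or below 0.10 times wild type and 16 at or below 0.25 times, while 77 lay between 0.40 and 0.50. Also at 14 DAP, the median of the 7965 genes whose ratio at 7 DAP lay in the window was 1.08 times wild type. Mean abundance of members at 14 DAP ran from 0.55 to 157 CPM in the mutant (median 5.07 CPM) and from 5.02 to 407 CPM in wild type (median 14.3 CPM). At 7 DAP the medians were 15.3 CPM in mutant seeds, against 16.7 CPM in wild type. CPM is not corrected for transcript length, so these ranges do not rank transcripts by number of molecules.

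Summed over the 134 members, mutant libraries at 14 DAP held 1720, 1751 and 1751 CPM, against 4364, 4378 and 4219 CPM in wild type. At 7 DAP the sums were 5684, 5562 and 5679 CPM in the mutant, against 6203, 6026 and 5993 CPM in wild type. No single library set these sums, since the 3 libraries of each group lay close together and apart from those of the other genotype. The most abundant member made up 9.42% of the wild-type sum at 14 DAP, and the 10 most abundant made up 36.8%.

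**Figure D2:**
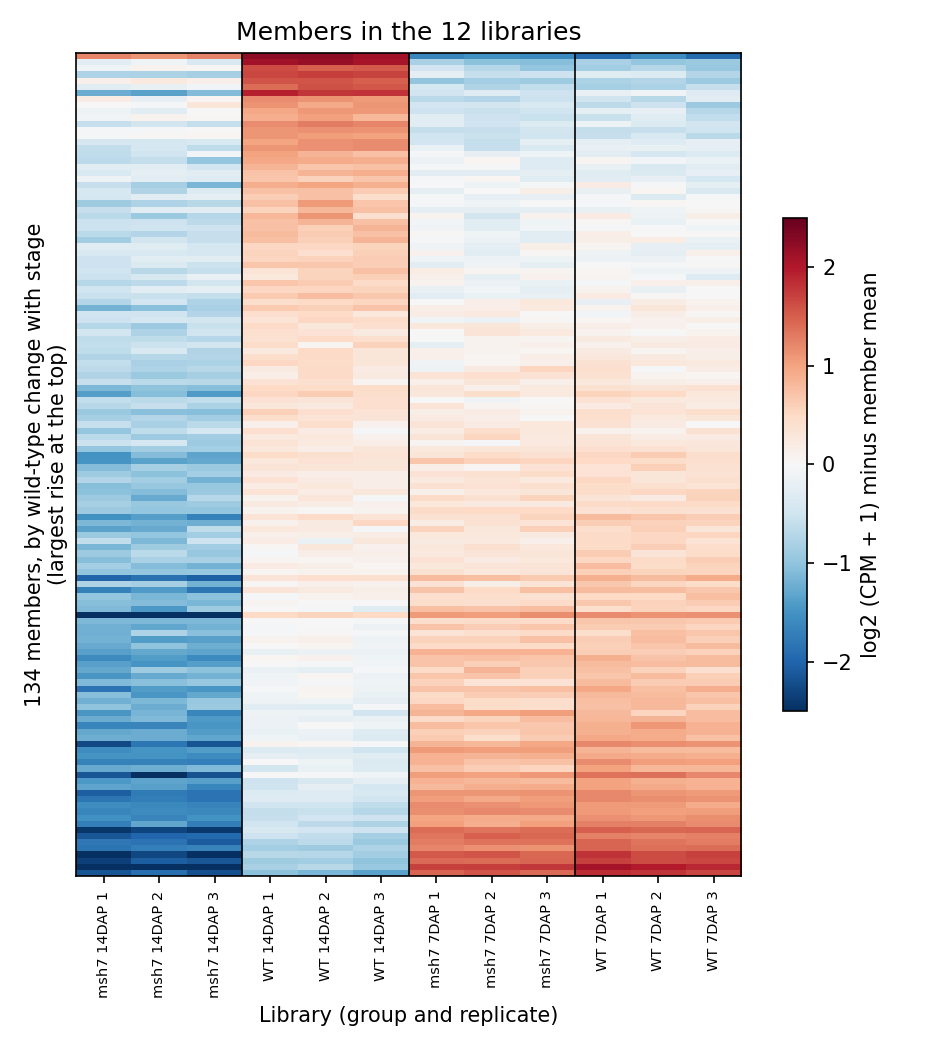
Abundance of the 134 members (rows) in the 12 libraries (columns), as log2 of CPM plus 1 minus each member's mean over the libraries. Rows run from the largest rise with stage in wild type at the top to the largest fall at the bottom, and 4 members pass the ends of the colour scale. In the mutant at 14 DAP the 3 libraries are lower than wild type in every row, while at 7 DAP the genotypes differ little.

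The lowest ratio was that of Zm00001d030267. Mutant libraries at 14 DAP had 1.72, 1.70 and 1.87 CPM, against 25.3, 26.6 and 25.5 CPM in wild type, so that the mutant mean was 6.84% of wild type. At 7 DAP the same transcript had 38.4, 37.9 and 40.7 CPM in the mutant, against 41.7, 39.7 and 40.5 CPM in wild type. The genotypes overlapped at 7 DAP, where the gene was nevertheless among those called lower in the mutant (log2 fold change −0.12, edgeR adjusted p = 0.0428). They were far apart at 14 DAP, where the mutant value rests on 101 counts over 3 libraries and the wild-type value on 1606. Zm00001d029397 had 4.03, 3.69 and 4.61 CPM in the mutant at 14 DAP, against 45.1, 40.3 and 40.9 CPM in wild type, or 9.77%. At 7 DAP it had 7.48, 8.57 and 7.36 CPM in mutant seeds, against 9.52, 10.3 and 8.58 CPM in wild type, so that the groups nearly touched. It too was called lower in the mutant at 7 DAP (log2 fold change −0.34, edgeR adjusted p = 0.00494). The third, Zm00001d047081, was scarce at 14 DAP, with 0.42, 0.49 and 0.76 CPM in mutant seeds, against 5.56, 6.13 and 5.02 CPM in wild type. Those mutant values rest on 32 counts, and the wild-type level was 9.95-fold the mutant level from summed counts (95% counting interval 6.92 to 14.8). The interval is exact and covers counting error only. At 7 DAP Zm00001d047081 had 36.7, 37.1 and 38.3 CPM in mutant seeds, against 48.0, 44.6 and 41.6 CPM in wild type. It was called lower in the mutant there as well (log2 fold change −0.32, edgeR adjusted p = 1.09e-07). The fourth, Zm00001d017279, had 1.42, 1.41 and 1.32 CPM in the mutant at 14 DAP, against 12.3, 12.7 and 12.4 CPM in wild type, or 11.1%. It was close to the lower limit of abundance at 7 DAP, with 2.54, 1.77 and 1.90 CPM in mutant seeds, against 2.38, 2.25 and 1.502 CPM in wild type, and the genotypes overlapped. Zm00001d017279 was not called at 7 DAP (edgeR adjusted p = 0.917).

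The 4 members with the highest CPM in wild type at 14 DAP come next. Zm00001d040029 had 163, 149 and 160 CPM in the mutant at 14 DAP, against 421, 403 and 396 CPM in wild type, and 683, 632 and 669 CPM in the mutant at 7 DAP, against 721, 719 and 720 CPM in wild type. The mutant was at 38.7% of wild type at 14 DAP and at 91.9% at 7 DAP, with no overlap of the genotypes at either stage. Zm00001d024425 averaged 118 ± 3.48 CPM in mutant seeds against 250.1 ± 5.65 CPM in wild type at 14 DAP, and 267 ± 2.57 CPM in mutant seeds against 321 ± 5.28 CPM in wild type at 7 DAP (± SD, n = 3 each). Zm00001d024963 averaged 57.9 ± 1.72 CPM in mutant seeds against 126 ± 3.96 CPM in wild type at 14 DAP, and 169 ± 4.68 CPM in mutant seeds against 193 ± 6.59 CPM in wild type at 7 DAP (± SD, n = 3 each). In Zm00001d021979 the genotypes overlapped at 7 DAP, with 53.3, 53.9 and 58.6 CPM in mutant seeds, against 53.2, 53.9 and 56.9 CPM in wild type. At 14 DAP its libraries had 78.5, 78.7 and 80.5 CPM in the mutant, against 175, 179 and 177 CPM in wild type. Zm00001d021979 was not called at 7 DAP (edgeR adjusted p = 0.426). The other members of these 4 were called lower in the mutant at 7 DAP, as were 35.6% of all genes tested. Their log2 fold changes were −0.18 in Zm00001d040029, −0.32 in Zm00001d024425 and −0.24 in Zm00001d024963 (edgeR adjusted p = 2.24e-12, 4.19e-22 and 3.69e-12).

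**Figure D3:**
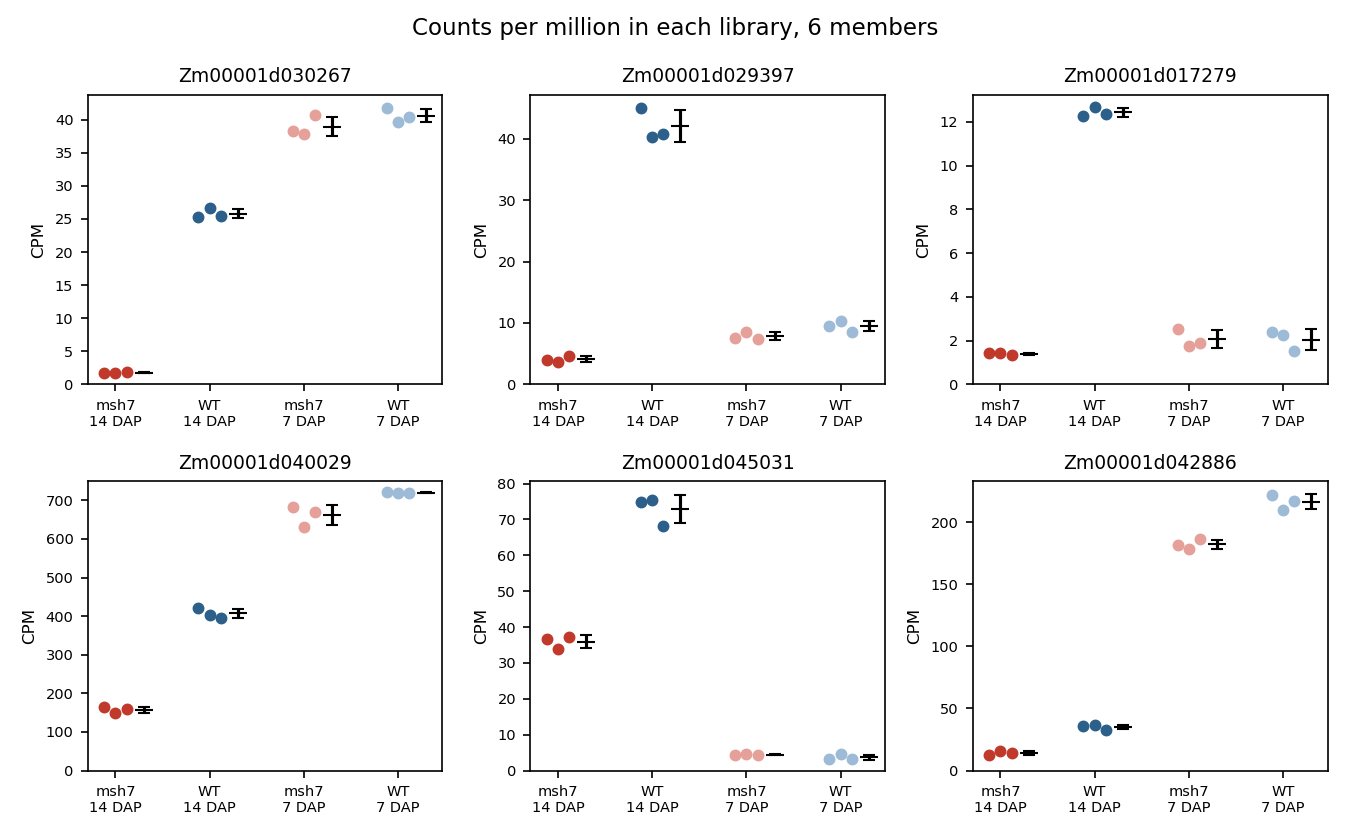
CPM of 6 members in each of the 12 libraries, by genotype and stage, with points for libraries and a bar for the mean ± SD of 3 libraries beside them. All vertical axes start at 0. At 14 DAP the mutant points lie below the wild-type points in all 6 panels, and the wild-type level at 14 DAP is above that of 7 DAP in Zm00001d029397, Zm00001d017279 and Zm00001d045031 and below it in Zm00001d030267, Zm00001d040029 and Zm00001d042886.

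At 14 DAP the replicates of the genotypes did not overlap in any of the 134 members, and in 79 of them the highest mutant library was at most 0.5 times the lowest wild-type library. Over all 23811 genes tested at 14 DAP, 27.5% were lower in the mutant without overlap. All 134 members passed the filter on low counts and were called lower in the mutant by the quasi-likelihood test of edgeR (adjusted p of at most 7.65e-09), against 32.1% of all genes tested. Log2 fold changes of members ran from −3.95 to −1.08, with a median of −1.35, beside a median of 0.01 over all genes tested. The rule used this contrast, so the count says nothing beyond the choice of members. The spread between replicates of members, as the median coefficient of variation, was 9.15% in the mutant and 6.14% in wild type at 14 DAP. All genes at the same wild-type levels had medians of 4.46% in the mutant and 4.75% in wild type. For members, counting error alone, taken as the inverse root of the mean count, had medians of 10.2% in the mutant and 5.81% in wild type. The wider spread in the mutant thus went with its lower counts. A coefficient of variation from 3 libraries tends to lie below its true value. How far the members varied beyond counting error is therefore not read from these medians. The common dispersion of the edgeR fits was estimated over all genes tested and not over the members alone. It gave a spread beyond counting error of 3.28% at 14 DAP, 2.92% at 7 DAP and 3.13% over all 12 libraries. The small p-values rest on this narrow spread, and separate plants are not named for the replicates.

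The rule set the window at 7 DAP, and the members were not evenly placed in it. The mutant was below wild type in 92 members and above it in 42, with a median ratio of 0.924, while the median over the 7965 genes in the window was 1.02 and 45.3% of those were below 1. By the edgeR test 61 members (45.5%) were called lower in the mutant at 7 DAP and 5 were called higher, and 68 were not called. Over all genes tested at 7 DAP, 35.6% were lower and 35.5% higher, and in the window alone 32.7% were lower and 22.1% higher. The 61 members had ratios from 0.8002 to 0.9782 with a median of 0.846. That their difference at 7 DAP was smaller than the one at 14 DAP is fixed by the rule. Their median at 14 DAP was 0.416 times wild type, and that of the 68 members not called at 7 DAP was 0.419 times. Replicates did not overlap in 49 members that were lower in the mutant at 7 DAP and in 12 that were higher, and the other 73 members overlapped. Over all genes tested these shares were 32.6% lower and 40.3% higher, and in the window alone 25.2% lower and 33.0% higher. Overlap, here and at 14 DAP, was judged on CPM with library totals, while the calls used TMM factors, which correct for composition. The median log2 fold change of all genes at 7 DAP was 0.07 with library totals and 0.01 with TMM factors. Shares without overlap and shares called are therefore not on the same scale. As the rule used this contrast too, these counts describe the members and no more is read from them.

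The 5 members called higher in the mutant at 7 DAP were named after their values were seen. Zm00001d043515 had 166 ± 0.995 CPM in mutant seeds, against 139 ± 1.75 CPM in wild type at 7 DAP, and Zm00001d011938 had 162 ± 1.79 CPM in mutant seeds, against 138 ± 3.27 CPM in wild type seeds (± SD, n = 3 each). The mutant was at 44.1% and 46.1% of wild type at 14 DAP in these members. Zm00001d043450, Zm00001d044691 and Zm00001d018819 were at 119%, 119% and 114% of wild type at 7 DAP and at 35.4%, 46.3% and 33.3% at 14 DAP. All 5 fell with stage in wild type as well. Leaving out wild-type replicate 1 of 7 DAP gave 8 such members, and leaving out mutant replicate 2 of 7 DAP gave 3. The number was 12 with library totals as the only scaling and 3 with DESeq2, and the share of all genes was not counted under these settings.

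When the genotype effect at 14 DAP was tested against that at 7 DAP, edgeR called all 134 members with a lower effect at 14 DAP (adjusted p of at most 0.000732), against 24.0% of the 25344 genes in that fit. Differences ran from −3.83 to −0.71 on the log2 scale with a median of −1.26. Both limits of the rule enter this difference, and it is given for its size only. The smallest difference was that of Zm00001d052253, which sat near both limits, at 49.9% of wild type at 14 DAP and 80.2% at 7 DAP.

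How the members changed from 7 to 14 DAP in wild type was not a term of the rule, although the same wild-type libraries entered it, and a wild-type value that is high by chance at 14 DAP helps a gene to meet the rule. In wild type 68 members rose (50.7%), 50 fell (37.3%) and 16 were not called (edgeR, adjusted p below 0.05). Over all genes of the fit 40.8% rose and 39.8% fell, and over the genes at the same wild-type levels 47.3% rose and 39.4% fell. For changes of any size, the members' shares were near those of genes at the same levels. Transcripts that rise and transcripts that fall during wild-type development were both among the members. The median log2 fold change was 0.16 for members and 0.09 for genes at their levels. Rises beyond 2-fold were made by 37 members (27.6%), against 15.6% of genes at the same levels, and falls beyond 2-fold by 17 (12.7%), against 10.6%. With library totals as the only scaling, which moved the median of all genes to −0.30, 50 members rose and 65 fell, so the order of these counts depended on the scaling. The shares of all genes that rose and fell were not counted under that scaling. The members can therefore not be set beside genes at their levels there.

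Of the members, Zm00001d045031 rose most in wild type, with 74.96, 75.55 and 68.29 CPM at 14 DAP, against 3.24, 4.51 and 3.25 CPM at 7 DAP (log2 fold change 4.63 ± 0.08 SE, adjusted p = 8.65e-83 with edgeR). Mutant libraries had 36.5, 34.0 and 37.3 CPM at 14 DAP, against 4.26, 4.69 and 4.36 CPM at 7 DAP. It rose in both genotypes and reached a lower level in the mutant. Zm00001d016841 had 33.1, 34.9 and 32.1 CPM in wild type at 14 DAP, against 3.55, 3.07 and 3.20 CPM at 7 DAP (log2 fold change 3.67 ± 0.10 SE, adjusted p = 2.38e-60 with edgeR). In the mutant it had 5.58, 6.37 and 5.06 CPM at 14 DAP, against 3.52, 2.91 and 2.80 CPM at 7 DAP. Zm00001d049242 rose in wild type with a log2 fold change of 3.03 (SE 0.12), to 21.5 ± 1.16 CPM at 14 DAP against 3.28 ± 0.38 CPM at 7 DAP, and in the mutant with 1.15 (SE 0.14), to 6.68 ± 0.56 CPM against 3.69 ± 0.80 CPM (± SD, n = 3 each). A pair of the lowest ratios belonged to transcripts that rose in wild type and not in the mutant. Zm00001d029397 rose in wild type (log2 fold change 2.47, SE 0.08) and fell in the mutant (−0.63, SE 0.13), and Zm00001d017279 rose in wild type (2.92, SE 0.15) and was not called in the mutant (−0.30 ± 0.23 SE, adjusted p = 0.208 with edgeR).

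Among the members that fell in wild type, Zm00001d038563 had 11.6, 10.6 and 9.06 CPM at 14 DAP, against 90.22, 87.66 and 79.99 CPM at 7 DAP (log2 fold change −2.73, SE 0.07). In the mutant it had 4.69, 5.88 and 4.56 CPM at 14 DAP, against 69.1, 75.4 and 67.5 CPM at 7 DAP. The fall was steep in both genotypes and the mutant ended lower. Zm00001d047081 fell in wild type to 5.57 ± 0.55 CPM, against 44.7 ± 3.18 CPM at 7 DAP, and in the mutant to 0.55 ± 0.18 CPM, against 37.4 ± 0.85 CPM at 7 DAP (± SD, n = 3 each). The log2 fold changes with stage were −5.76 in the mutant (SE 0.14) and −2.69 in wild type (SE 0.08). Zm00001d042886 had 35.8, 36.6 and 32.9 CPM in wild type at 14 DAP, against 222, 210.1 and 217 CPM at 7 DAP (log2 fold change −2.31, SE 0.04). In the mutant it had 12.6, 15.4 and 14.4 CPM at 14 DAP, against 182, 179 and 186 CPM at 7 DAP, and its genotypes did not overlap at either stage. Zm00001d024425 was among the 16 not called in wild type (log2 fold change −0.04 ± 0.03 SE, adjusted p = 0.163 with edgeR) and fell in the mutant (−0.89, SE 0.03). It was called as a fall in wild type with RLE factors (−0.07), DESeq2 (−0.07), library totals only (−0.36) and without wild-type replicate 3 of 14 DAP (−0.07).

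In the mutant 101 members fell from 7 to 14 DAP (75.4%), 12 rose (8.96%) and 21 were not called, while of all genes in the fit 39.6% fell and 39.3% rose. The rule ties this change to that of wild type, since the ratio had to drop between the stages, and nothing is read from the count. Of the 68 members that rose in wild type, 12 also rose in the mutant, 21 were not called and 35 fell. The 12 were all among the 37 that rose more than 2-fold in wild type, of which 18 others were not called in the mutant and 7 fell. The 50 members that fell in wild type and the 16 that were not called there all fell in the mutant. Median ratios of the mutant to wild type at 14 DAP were close in these classes, at 0.425 for members that rose in wild type, 0.394 for those not called and 0.420 for those that fell. At 7 DAP, 14 of the 68 that rose, 12 of the 16 not called and 35 of the 50 that fell were called lower in the mutant. Class and call share the wild-type libraries of 7 DAP, and the rule used the contrast at 7 DAP, so nothing is read from these counts. Median mutant abundance at 7 DAP was 8.05 CPM in the members that rose and 38.2 CPM in those that fell, and its part in the counts was not tested.

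**Figure D4:**
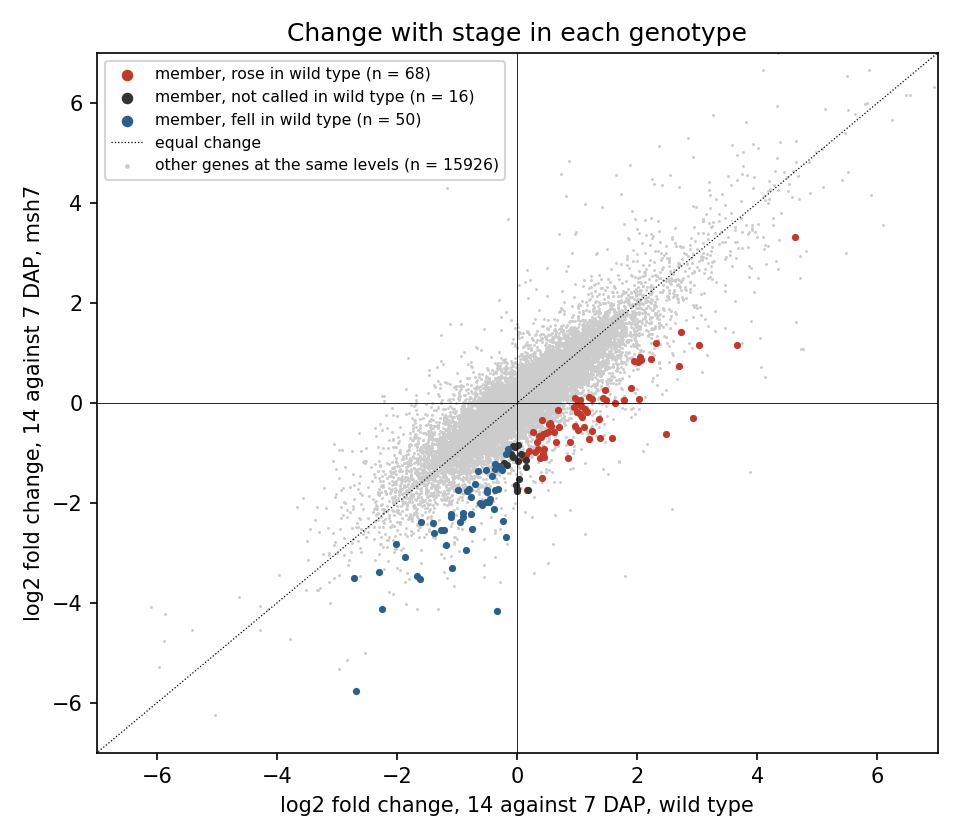
Log2 fold change from 7 to 14 DAP in wild type (horizontal axis) and in the mutant (vertical axis) from the edgeR fit, for members by their call in wild type and for other genes at the same wild-type levels (grey). All 134 members lie below the dotted line of equal change, as the rule requires, and they spread along it over the range of wild-type changes from −2.73 to 4.63. Outside the axes lie 10 other genes and 0 members.

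The wild-type course was also counted in lists built with the same limits in other directions. Turning the stages of the rule round gave 171 genes that were lower in the mutant at 7 DAP alone, of which 30 rose with stage in wild type and 131 fell, at a median log2 fold change of −0.97. Asking for at least 2 times wild type in the mutant at 14 DAP, with 5 CPM in the mutant there, gave 73 genes, of which 13 rose and 54 fell, at a median of −1.38. The limits on abundance fall on other groups in these lists. The list turned round asked for 5 CPM in wild type at 7 DAP and 2 CPM at 14 DAP. The list of higher genes set no lower limit on wild type at 14 DAP. Whether these limits admit more genes that fall in wild type than the limits of the members do was not tested. Shares among all genes at the levels of each list were not counted. The libraries are shared, the differences from the members were not tested, and nothing is read from them.

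The limits of the rule cut through a continuous range. Just inside the limit at 14 DAP were Zm00001d049273 at 49.97% of wild type and Zm00001d052253 at 49.94%. Just outside were Zm00001d024213, with 7.77, 7.53 and 6.03 CPM in mutant seeds, against 15.3, 13.5 and 13.5 CPM in wild type at 14 DAP, or 50.4%, and Zm00001d021971, with 4.87, 6.32 and 5.27 CPM in mutant seeds, against 11.4, 11.4 and 9.80 CPM in wild type, also 50.4%. In all, 45 members had a ratio above 0.45 at 14 DAP and 34 a ratio under 0.85 at 7 DAP. When any 1 of the 12 libraries was left out, between 127 and 145 genes met the rule, and 85 of the 134 members met it in every one of these 12 cases. With TMM factors, which correct for composition, 151 genes met it, of which 108 were members.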

How the data were processed

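RNA was measured in 12 libraries of maize seeds, with 3 in each of 4 groups. For each stage the authors deposited 1 table of raw, whole-number read counts per gene. The submitters' processing notes name, without their roles, featureCounts 1.6.4, HISAT2 2.2.1, Trimmomatic 0.39, StringTie 1.3.6 and DESeq2, and the build B73 RefGen_v4. These sources do not state the annotation release, or how strand and reads with several alignments were treated. Per the labels' protocols, libraries were made from DNase-treated total RNA with a NEBNext Ultra II kit.

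Columns were matched to samples by description, with upper and lower case kept. Group means of CPM with library totals gave the members. Tests used edgeR 4.0.16 in R 4.3.3 on the deposited counts, by the quasi-likelihood test with TMM factors, the default filter by group and robust dispersions. Genotypes were compared in fits of 6 libraries, and stages and the difference of effects in a fit of 12. Adjusted p-values (Benjamini-Hochberg, threshold 0.05) cover all genes tested. An approximate SE was taken as the size of the log2 fold change over the root of its F statistic. The scripts were tested on simulated data. DESeq2 1.42.0 was an alternative.

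Named genes were the 4 members with the highest wild-type CPM at 14 DAP, the 4 with the lowest ratio, the 3 with the largest rise and the 3 with the largest fall in wild type, and the 2 genes on either side of the limit of 0.5. The members, lists and tests were chosen with earlier results of these data known. The table of gene names used (assembly Zm-B73-REFERENCE-NAM-5.0) matched no nuclear identifier, so planned lists of pathway genes and tissue markers were not used and no sequence is shown.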

Additional observations from a re-analysis of the deposited data

Results flagged for a closer look

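The difference between the genotype effects at 14 and 7 DAP passed the test in 134 of 134 members, all with a lower effect at 14 DAP (edgeR). The members were chosen for this difference, so the result is a description of the rule.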

How the results depend on the processing

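The number of genes that met the rule was 151 with TMM factors, 152 with RLE factors, 133 with medians over replicates and 94 with at least 10 CPM in wild type at 14 DAP. It was 57 with a ratio of at most 0.4 at 14 DAP and 55 with a window of 0.9 to 1.1 at 7 DAP. With 1 library left out it was 127 to 145. With 1 library left out, 64 to 68 members rose and 48 to 51 fell in wild type, 99 to 101 fell in the mutant, 52 to 62 were called lower and 3 to 8 higher in the mutant at 7 DAP, and 134 were called lower at 14 DAP and for the difference between stages. Members called higher at 7 DAP numbered 12 with library totals only and 3 with DESeq2. Members called lower at 7 DAP numbered 49 and 48 under the same settings. Library totals only gave 50 rises and 65 falls in wild type. Shares of all genes called were not counted under these alternative settings, so the counts describe the members alone. For single named genes, 387 of 391 alternative values kept their direction and side of the threshold. The other 4 belonged to the wild-type change of Zm00001d024425, which was called as a fall with RLE factors (log2 fold change −0.07), library totals (−0.36), DESeq2 (−0.07) and without wild-type replicate 3 of 14 DAP (−0.07). The cause was not tested.

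Replicate numbers are shared by the groups. Deviations of libraries with the same number correlated at −0.026 to 0.061, and those with different numbers at −0.060 to 0.044. The own number gave the best correlation in 11 of 24 checks. The number expected without pairing was not computed, so these checks do not decide whether the numbers mark pairs. They were not taken as pairs in the main fits. With the replicate number as a block, the counts of members were the same as without it (68 and 50 in wild type, 101 in the mutant, 61 and 5 at 7 DAP, 134 at 14 DAP and 134 for the difference). Depth limits the scarcest values, the lowest being 7 counts in a library.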
